A study of Mus musculus with 2 samples.

Results

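Desmosomes are button-like junctions that tie neighbouring keratinocytes together and anchor their keratin filaments. Desmogleins (Dsg) and desmocollins (Dsc) are the cadherins that meet in the space between the cells. On the inner side of the membrane their tails bind plakoglobin and plakophilins (Pkp), which in turn hold desmoplakin and, through it, the keratins. In stratified epidermis the cadherins are known to be exchanged along the layers, with Dsg2, Dsg3 and Dsc3 placed low and Dsg1 and Dsc1 placed high.

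The genes described are 10 desmosomal genes picked by symbol: Dsg1a, Dsg1b, Dsg2, Dsg3, Dsg4, Dsc1, Dsc2, Dsc3, Pkp1 and Pkp3. All 10 were found among the 32285 genes of the count matrices. The data were 2 droplet single-cell RNA libraries from mouse dorsal skin at postnatal day 3. The control library had the genotype Wildtype and the treatment label Dox (doxycycline is the usual reading of that label, which the labels do not spell out). The induced library had the genotype miR-200b induced and the same Dox label. The labels give neither the construct nor the promoter or cell type that drives the induction, nor the strain, sex and number of animals. Epidermal and dermal suspensions had been mixed 30:70 before loading, so the share of epidermal cells was set in part by hand. Each group was 1 library, so no test between groups was possible. All intervals below are exact 95% intervals that cover counting error only, not differences between animals.

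The control library held 9072 barcodes and 100409201 unique molecular identifiers (UMIs, each counting 1 captured RNA molecule), and the induced library 9114 barcodes and 119705137 UMIs. After the cell filter 5178 control and 5258 induced cells were kept, of which 4226 and 4424 were in clusters pooled as epithelial, 46 and 23 of them in an unnamed cluster led by the collagen genes Col3a1 and Col1a1. The median kept cell had 14748 UMIs in the control and 18019.5 in the induced library. The libraries shared 74 barcode sequences, 10 of them among kept cells. Layers were rebuilt here by clustering without the 10 genes and naming clusters from marker lists, and 1784 control and 1981 induced epithelial cells stayed unnamed. Basal-like epidermis held 577 control and 1291 induced cells, spinous-like 135 and 357, granular-like 22 and 147, outer root sheath-like 1174 and 540, and upper follicle- and isthmus-like 306 and 105. Sebaceous gland-like cells numbered 228 in the control and 3 in the induced library. The basal, spinous and outer root sheath names rest mostly on different clusters in the 2 libraries. Control basal cells were nearly all in 2 clusters led by H19 and Oat, while induced basal cells were in 4 others, led by Igfbp2, by Tnc and Cdh13, by cell cycle genes such as Cdk1, and by the stress-response genes Nfkbia, Gadd45b and Irf1. Control spinous cells were led by Serpinb12 and Krt1, and both induced spinous clusters by Krt16. Of the outer root sheath clusters only 1, with 179 control and 39 induced cells, held at least 20 cells of each library. Whether such a split comes from the genotype or from the library cannot be told apart.

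The induced microRNA is named miR-200b in the labels. Its mature form is shown because its seed, bases 2 to 8 (in capitals), is the stretch that pairs with target RNAs:

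mmu-miR-200b-3p: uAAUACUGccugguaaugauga

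This RefSeq sequence lies at chr4:156055685-156055706 on the minus strand of GRCm38.p6. Poly(A)-selected 3′ libraries do not measure the mature microRNA. The matching 7-base word, CAGTATT on the sense strand, occurred once in the 3′ UTR of Dsg1a (2305 bases, GENCODE vM21, longest annotated), where the base after it was an A, and 0 times in those of the other 9 genes. Of 20869 measured genes with a 3′ UTR, 2782 (13.3%) held the word. A match is only a description of letters and shows no binding.

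The 8 cadherin genes lie in 1 cluster on chromosome 18 of GRCm38. The 3 desmocollins are on the minus strand, with Dsc3 at 19960930 to 20002351, Dsc2 at 20030633 to 20059554 and Dsc1 at 20084184 to 20114871. The desmogleins follow on the plus strand, after Dsg1c (20247340 to 20285031), which is not among the 10 genes, with Dsg1a at 20310811 to 20343350, Dsg1b at 20376729 to 20410196, Dsg4 at 20436175 to 20471821, Dsg3 at 20510274 to 20547459 and Dsg2 at 20558074 to 20604521. Pkp1 is on chromosome 1 (135871395 to 135919207, minus strand) and Pkp3 on chromosome 7 (141078218 to 141090510, plus strand). All are protein-coding. Dsg1a, Dsg1b and Dsg1c are close paralogs, so the authors' counting may have dropped or split reads among them and their separate values are uncertain. How alike their counted 3′ ends are was not tested. Dsg2 overlaps a measured gene of unknown function, Gm16090.

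Between 99.0% and 100% of each gene's UMIs in kept cells came from epithelial cells in either library, which held 88.5% of all UMIs of kept control cells and 94.1% of those of kept induced cells. Levels are given as CPM (the UMIs of a gene per 1000000 UMIs of the summed cells of a layer). They are not per length, so they are compared between layers and libraries, not between genes. In fibroblast-like cells, which should lack desmosomes, Dsc3, Pkp1 and Pkp3 stood at 15.4 to 23.7 CPM and the other members at 0 to 8.13 CPM. These values serve below as the background. Their source was not tested.

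**Figure D1:**
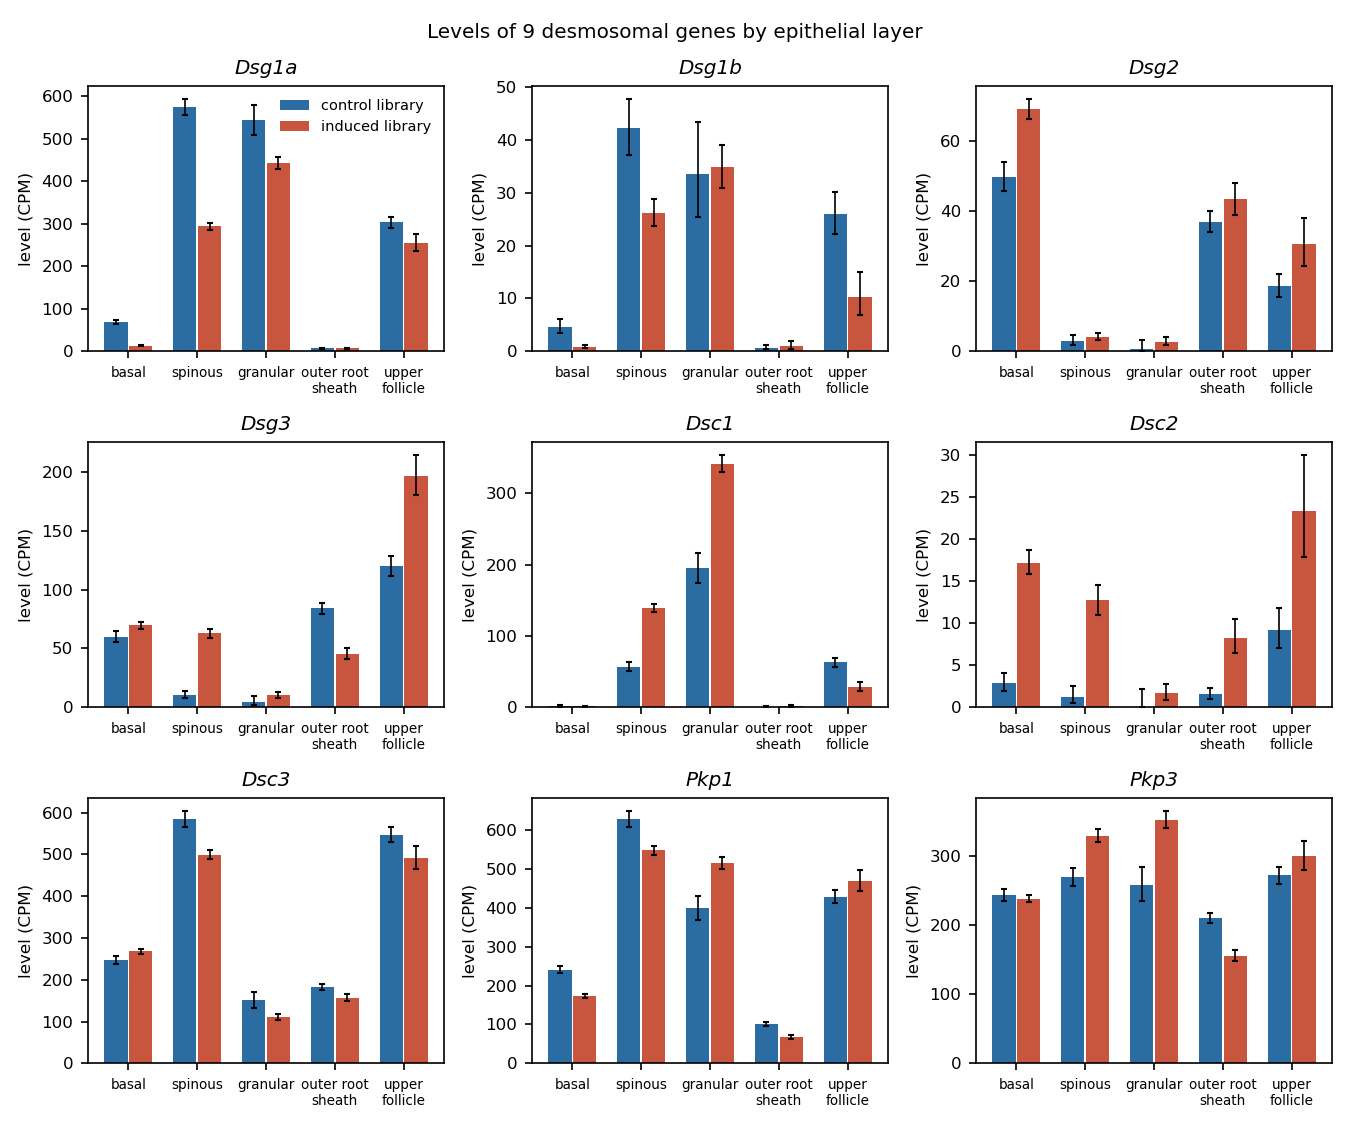
Bars show the level (CPM, linear axis, own scale per gene) of 9 genes in 5 epithelial layers of the control (blue) and induced (red) library, with 1 library per group and exact 95% Poisson intervals. Dsg1a, Dsg1b and Dsc1 stand high in the spinous and granular bars, Dsg2 in the basal bars, and Dsc2 is higher in the red bars of basal, spinous, outer root sheath and upper follicle cells.

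Along the epidermis, Dsg1a, Dsc1 and Pkp1 were higher in spinous than in basal cells, and Dsg2 lower, in both libraries. A gene was called different when it passed 2-fold with 5 CPM added to both levels, and was tested only where its mean reached 20 CPM. From basal to spinous cells 5 of 8 members tested were higher in the control library (background over all genes tested, 6.68% higher) and 2 were lower (12.8%). In the induced library 3 of 7 were higher (7.38%) and 1 was lower (11.7%). From spinous to granular cells the control library had 1 of 6 members higher (12.4%) and 1 lower (9.99%), and the induced library 1 of 7 higher (7.52%) and 2 lower (6.69%). Dsc1 was the member that was higher and Dsc3 the member that was lower in both, although the control granular cells numbered only 22. The call for Dsc1 was lost in 4 alternatives: without the top doublet scores, at resolution 1.0, with clustering centred within each library and with layers per cell, the number of members higher in both libraries was 0.

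Dsg1a encodes the main desmoglein of the upper epidermis. Its level in the control library was 69.3 CPM (64.5 to 74.3) in basal, 575.0 (556 to 595) in spinous and 544.0 (509 to 580) in granular cells. In the induced library it was 13.3 CPM (12.1 to 14.6), 294 (286 to 303) and 442 (428 to 457). Spinous cells thus stood 8.30-fold above basal cells in the control library, where the spinous and granular intervals overlapped. In the follicle Dsg1a was near background in the outer root sheath, at 7.10 CPM in the control and 6.83 in the induced library, and far higher in the upper follicle, at 304 and 256 CPM. Dsg1b followed the same order at lower counts. Its control levels were 4.63, 42.2 and 33.5 CPM in basal, spinous and granular cells, and its induced levels 0.811, 26.2 and 34.8 CPM.

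Dsg2 encodes the desmoglein that is widespread in simple epithelia and, in skin, sits in the deepest layer. It stood at 49.7 CPM in control basal cells and 2.91 in control spinous cells, and at 69.3 and 4.13 CPM in the induced library. Its spinous values were near those of fibroblast-like cells, 2.97 CPM in the control and 2.71 in the induced library. In the outer root sheath Dsg2 was 37.0 CPM in the control and 43.4 in the induced library.

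Dsg3, the desmoglein of the lower layers and of the follicle sheath, had a different course in each library. In the control library it was 59.8 CPM (55.4 to 64.5) in basal, 10.5 (8.00 to 13.4) in spinous and 4.70 (2.03 to 9.26) in granular cells. In the induced library it was 69.6 CPM (66.8 to 72.5), 62.7 (58.9 to 66.7) and 10.2 (8.18 to 12.6). Spinous cells stood 5.72-fold below basal cells in the control and 1.11-fold in the induced library, where granular cells stood 6.14-fold below spinous ones. Its highest cluster in either library was an upper follicle cluster led by Wfdc18 and Cst6, at 262 CPM in the control and 286 CPM in the induced library.

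Dsg4, a desmoglein of the hair shaft, was almost absent. Its 10 control UMIs came from 6 of 73 cells of a cluster led by the hair keratins Krt33a and Krt35. Of its 8 induced UMIs, 6 came from 4 of 58 cells of that cluster, and the other 2 from a cluster led by Krt25, Krt75 and Krt71. No Dsg4 UMI was seen in basal cells, where a count of 0 allows 0.262 CPM in the control and 0.0901 CPM in the induced library (3 UMIs over the layer).

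Dsc1, the desmocollin of the upper layers, was low in basal and highest in granular cells. Its control levels were 1.66 CPM (0.999 to 2.59) in basal, 56.7 (50.8 to 63.2) in spinous and 194 (174 to 217) in granular cells. Its induced levels were 1.47 CPM (1.09 to 1.95), 139 (134 to 145) and 341 (329 to 354). The basal levels were near those of fibroblast-like cells, 0.330 CPM (0.0400 to 1.19) in the control and 3.39 (1.10 to 7.90) in the induced library. The intervals of the 3 layers did not overlap within either library.

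Dsc2 is the desmocollin common to many epithelia, and it was scarce in the control epidermis. Control levels were 2.88 CPM in basal, 1.2 in spinous and 0 in granular cells, where the depth allows 1.76 CPM. Induced levels were 17.2 CPM in basal, 12.7 in spinous and 1.64 in granular cells. In the control library Dsc2 was highest in the sebaceous gland, at 33.0 CPM over 228 cells and 114 CPM in a cluster of 22 cells led by Ces4a, Elovl4 and Awat1, genes of lipid handling.

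Dsc3, the desmocollin of the lower layers, was broadly present and peaked in the middle. It was 247 CPM in basal, 585 in spinous and 150 in granular cells of the control library, and 268, 499 and 110.1 CPM in the induced library. Granular cells stood 3.89-fold below spinous cells in the control and 4.53-fold in the induced library. In the upper follicle Dsc3 stood at 547 CPM in the control and 492 in the induced library, above 183 and 157 CPM in the outer root sheath.

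The plakophilins link the cadherin tails to desmoplakin. Pkp1 belongs mainly to the upper layers, and its control levels were 240.0 CPM in basal, 629 in spinous and 398 in granular cells. Its induced levels were 173, 548 and 515 CPM. Pkp3, which occurs throughout the epidermis, moved least between layers: it was 243, 269 and 258 CPM in the control and 238, 329 and 352 CPM in the induced library, and it passed 2-fold between no pair of adjacent layers.

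Between the libraries, over all epithelial cells, 1 of 7 members tested was past 2-fold higher in the induced library (background, 2.28%) and 0 were lower (4.17%). The median log2 ratio of induced over control was 0.25 for these 7 members and -0.11 for all 5872 genes tested, both with 5 CPM added. The member past 2-fold was Dsc1, at 16.0 CPM in the control and 62.7 in the induced library, or 1.97 (1.89 to 2.06) as a log2 ratio. Spinous- and granular-like cells, where Dsc1 was high, were fewer in the control (135 and 22 of 4226) than in the induced library (357 and 147 of 4424). Dsg1a had nearly the same level over all epithelial cells, 118 CPM in the control and 117 in the induced library, although it was lower in each epidermal layer of the induced library. Dsc2 rested on 528 control and 1450 induced UMIs and had a log2 ratio of 1.13 (0.98 to 1.28). Its mean was under 20 CPM, so it was not called.

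**Figure D2:**
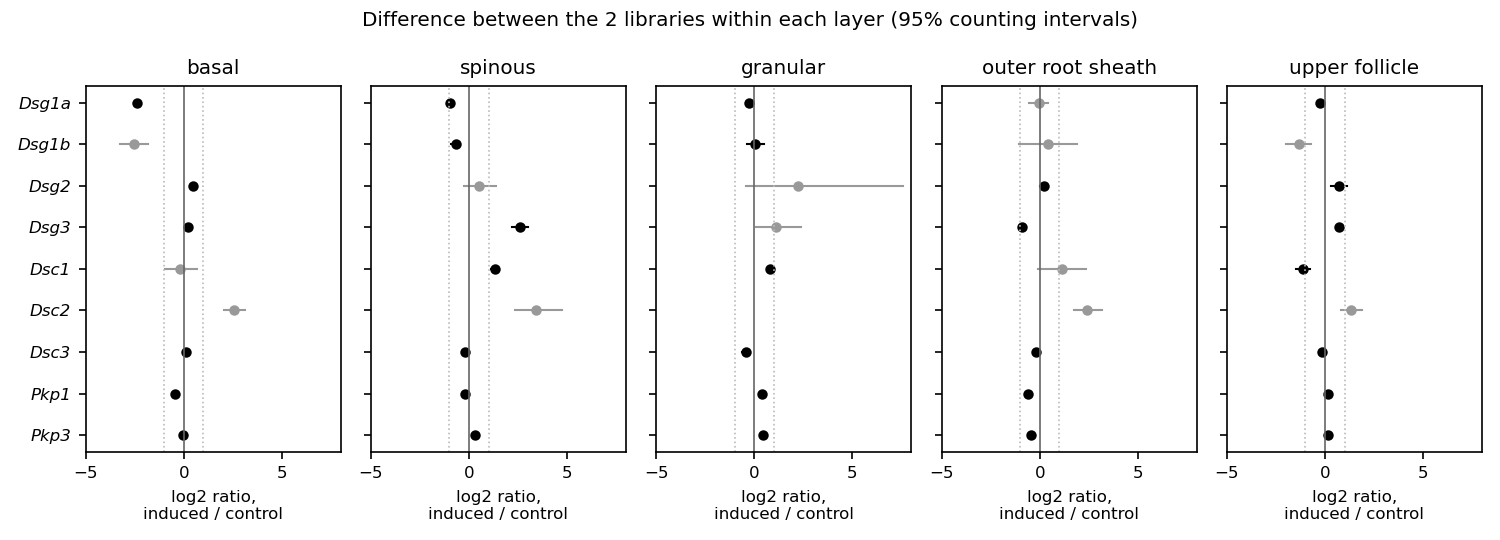
Points show the log2 ratio of CPM, induced over control, for 9 genes in 5 layers, with exact 95% counting intervals. Black points have a mean of at least 20 CPM and grey points a lower mean, dotted lines mark 2-fold, and Dsc2 in granular cells, at 0 in the control, is not drawn. Dsg1a lies left of -1 in basal cells, and Dsg3 and Dsc1 lie right of 1 in spinous cells.

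In basal cells the member that stood out was Dsg1a. Of 6 members tested, 0 were past 2-fold higher in the induced library (background, 2.04%) and 1, Dsg1a, was lower (3.03%). Its log2 ratio was -2.38 (-2.55 to -2.21). The 2 control basal clusters held 70.7 and 68.1 CPM of Dsg1a, and the 4 induced ones 13.5, 14.5, 12.7 and 8.27 CPM, the last in the stress-gene cluster. These clusters come almost wholly from 1 library each and are not replicates. How many of all genes separate them in the same way was not counted. The induced basal level overlapped the interval of induced fibroblast-like cells (8.13 CPM, 4.20 to 14.2). Dsg1b pointed the same way on few UMIs, 53 in the control and 27 in the induced library, with a log2 ratio of -2.51 (-3.24 to -1.82).

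The other basal members of at least 20 CPM lay closer together. Pkp1 was lower in induced basal cells, with a log2 ratio of -0.47 (-0.54 to -0.40), and Dsg2 higher, with 0.48 (0.35 to 0.61). The log2 ratio was 0.22 for Dsg3, 0.12 for Dsc3 and -0.03 for Pkp3. Dsc2, below the 20 CPM limit, had a log2 ratio of 2.58 (2.07 to 3.13). It was 3.34 and 1.70 CPM in the control basal clusters and 18.1, 15.5, 16.9 and 20.7 CPM in the induced ones. Among all genes with a mean of 5 to 20 CPM in basal cells, 2.85% were past 2-fold higher with 5 CPM added, as was Dsc2.

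In spinous cells 2 of 7 members tested were past 2-fold higher in the induced library (background, 3.71%) and 0 were lower (3.25%). Dsg3 had a log2 ratio of 2.58 (2.21 to 2.98), which was 1.59 at resolution 1.0 and 1.47 with layers per cell. It was 10.5 CPM in the control spinous cluster and 83.2 and 42.4 CPM in the 2 induced ones. Dsc1 had a log2 ratio of 1.30 (1.13 to 1.47), with 56.9 CPM in the control cluster and 68.0 and 210 CPM in the induced ones, so the induced clusters differed more from each other than the nearer one did from the control. At resolution 1.0 the ratio of Dsc1 was 2.22. Dsc2 rested on 7 control and 203 induced UMIs, with a log2 ratio of 3.40 (2.34 to 4.74), where 3.65% of genes of 5 to 20 CPM were past 2-fold higher. That ratio was 2.20 at resolution 1.0 and 2.43 with layers per cell. Dsg1a had a log2 ratio of -0.97 (-1.03 to -0.90), just inside 2-fold. Dsg1b had -0.69 (-0.92 to -0.45), which was -0.26 at resolution 1.0, while Dsc3 (-0.23), Pkp1 (-0.20) and Pkp3 (0.29) lay near 0.

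In granular cells, 22 in the control, 0 of 6 members were past 2-fold higher (background, 3.44%) and 0 lower (5.49%). Dsc1 had the largest ratio of those 6, at 0.81 (0.65 to 0.98), and passed 2-fold, at 1.30, when clustering was centred within each library. Dsc3 was at -0.45 (-0.65 to -0.24), but its direction turned to 0.17 with centred clustering, and it was -0.16 under the stricter filter.

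In the outer root sheath, 0 of 5 members were past 2-fold higher (background, 2.33%) and 0 lower (4.71%). Dsg3 came nearest, at 84.1 and 45.2 CPM, or -0.90 (-1.07 to -0.73) on the log2 scale. In the 1 outer root sheath cluster that both libraries shared, led by Tgfb2 and Krtap17-1, Dsg3 was 93.8 CPM in control and 81.8 in induced cells, with a log2 ratio of -0.20 (-0.74 to 0.32). In the upper follicle 0 of 7 members were past 2-fold higher (background, 5.03%) and 1 was lower (5.1%), Dsc1, at 62.8 CPM in the control and 28.7 in the induced library. Most control Dsc1 there came from a cluster led by Defb6, Cst6 and Krt79, at 96.2 CPM over 182 control cells, which held only 8 induced cells. In the cluster led by Wfdc18, which both libraries filled, Dsc1 was 8.37 CPM in the control and 3.43 in the induced library, on 12 and 4 UMIs. The upper follicle ratio of Dsc1 turned positive in 3 of 5 alternatives, to 0.24 with a stricter cell filter, 0.67 at a lower clustering resolution and 1.18 with layers set per cell.

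Since the epidermal clusters differed between the libraries, cells were also placed by keratins alone, a step chosen after the data had been seen. Krt5 and Krt14 mark basal cells and Krt1 and Krt10 suprabasal ones, and cells were binned by the percent of Krt1 and Krt10 among UMIs of the 4 keratins. Only cells with at least 50 UMIs of the 4 keratins were used, 3771 of 4226 control and 3745 of 4424 induced epithelial cells. Of these, clusters named as follicle or sebaceous gland and cells with 500 Krt79 CPM or more were left out. Unnamed clusters stayed in, among them the hair shaft cluster led by Krt33a and the one led by Krt25, so the bins are not purely epidermal. Bins under 10%, of 10 to 50%, of 50 to 90% and of at least 90% held 1409, 96, 55 and 86 control cells and 2274, 103, 78 and 303 induced cells. Of these, 565, 9, 48 and 85 control and 1294, 57, 73 and 296 induced cells were in clusters named basal, spinous or granular, so the lower 2 bins hold many unnamed cells.

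**Figure D3:**
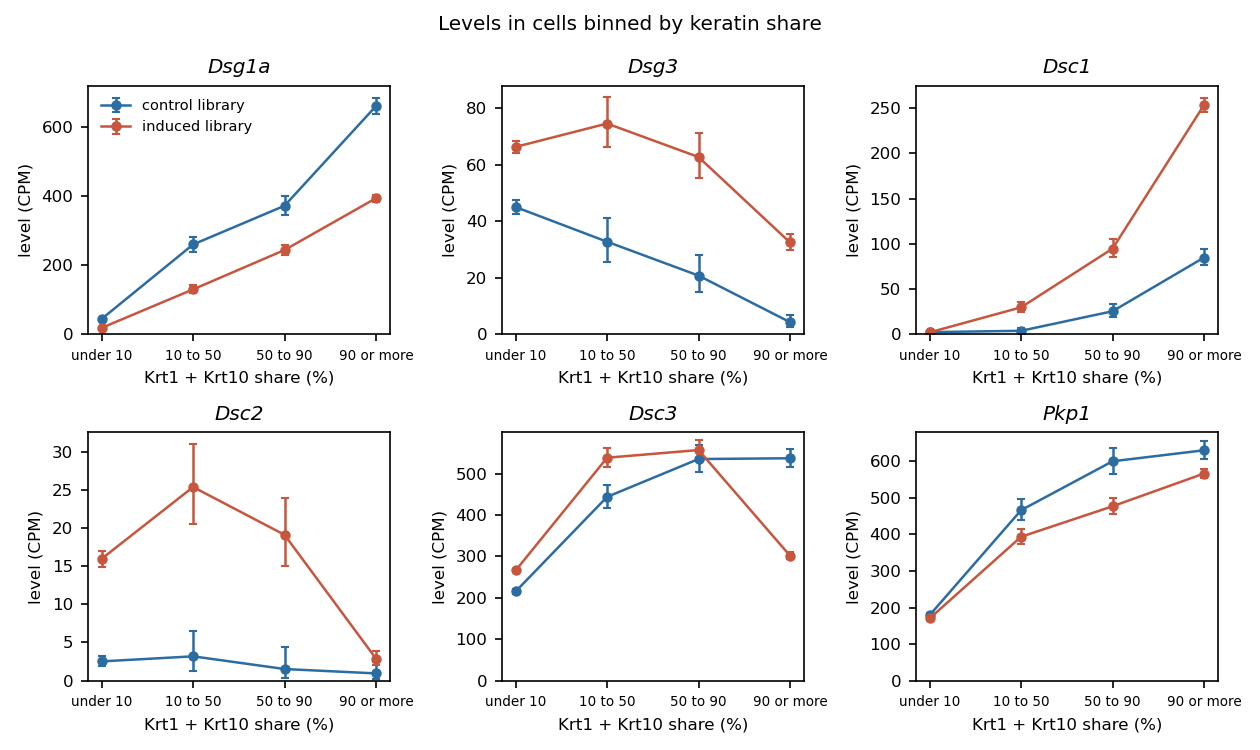
Points show the level (CPM, linear axis from 0) of 6 genes in epithelial cells, without clusters named as follicle or sebaceous gland, binned by the share of Krt1 and Krt10 among 4 keratins, for the control (blue) and induced (red) library, with exact 95% Poisson intervals. Cells with under 50 UMIs of the 4 keratins or with 500 Krt79 CPM or more were left out. Dsg1a is lower in the induced library in all 4 bins, Dsg3 and Dsc2 are higher in all 4, and Dsc1 is higher in the upper 3.

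Dsg1a was lower in the induced library in every bin. From the lowest to the highest bin it was 44.0, 259.7, 372 and 661 CPM in the control and 18.1, 129.5, 244 and 394 CPM in the induced library. Its log2 ratios were -1.29, -1.0, -0.61 and -0.75, and the 95% interval was below 0 in each. The order of the bins was the same in both libraries. With only cells of the named basal, spinous and granular clusters, a choice also made after the data had been seen, its log2 ratios were -2.15, -1.03, -0.62 and -0.69.

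Dsg3 was lower in each next bin of the control library, at 45.0, 32.7, 20.7 and 4.23 CPM. In the induced library it was 66.3, 74.5, 62.7 and 32.5 CPM. The log2 ratios were 0.56, 1.19, 1.60 and 2.94, and with cells of the named clusters only 0.25, 0.94, 1.59 and 2.85. Dsc2 was 2.52, 3.18, 1.52 and 0.940 CPM in the control and 16.0, 25.4, 19.1 and 2.89 CPM in the induced library. Its log2 ratio was highest in the third bin, at 3.66 (2.05 to 5.97), on few control UMIs.

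Dsc1 was alike in the lowest bin, at 2.16 CPM in the control and 1.91 in the induced library. In the next 3 bins it was 3.63, 25.3 and 84.6 CPM in the control and 29.6, 94.5 and 253 CPM in the induced library, with log2 ratios of 3.03, 1.90 and 1.58. In cells of the named clusters only, the log2 ratios of these 3 bins were 2.03 (0.12 to 5.10, on 2 control UMIs), 1.41 and 1.29. Dsc3 was 216, 444, 535.5 and 537 CPM in the control and 266, 539, 557 and 302 CPM in the induced library, and only in the highest bin was its control level the higher one. Pkp1 was lower in the induced library in all 4 bins, by log2 ratios of -0.07, -0.24, -0.33 and -0.15.

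The bins did not equalise the cells. Lor, a protein of the cornified envelope, was 24.1 CPM in control and 203 CPM in induced cells of the second bin and 26.3 and 708 CPM in the third, while Flg, the filaggrin gene of granular cells, was 5.0 and 145 CPM, then 7.07 and 229 CPM. In the highest bin Flg was 4391 CPM in the control and 992 CPM in the induced library. Krt1 was lower in the induced library in every bin, by log2 ratios of -0.73, -1.44, -0.91 and -0.49. The part of these marker differences in the results of the bins was not tested for any member.

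**Figure D4:**
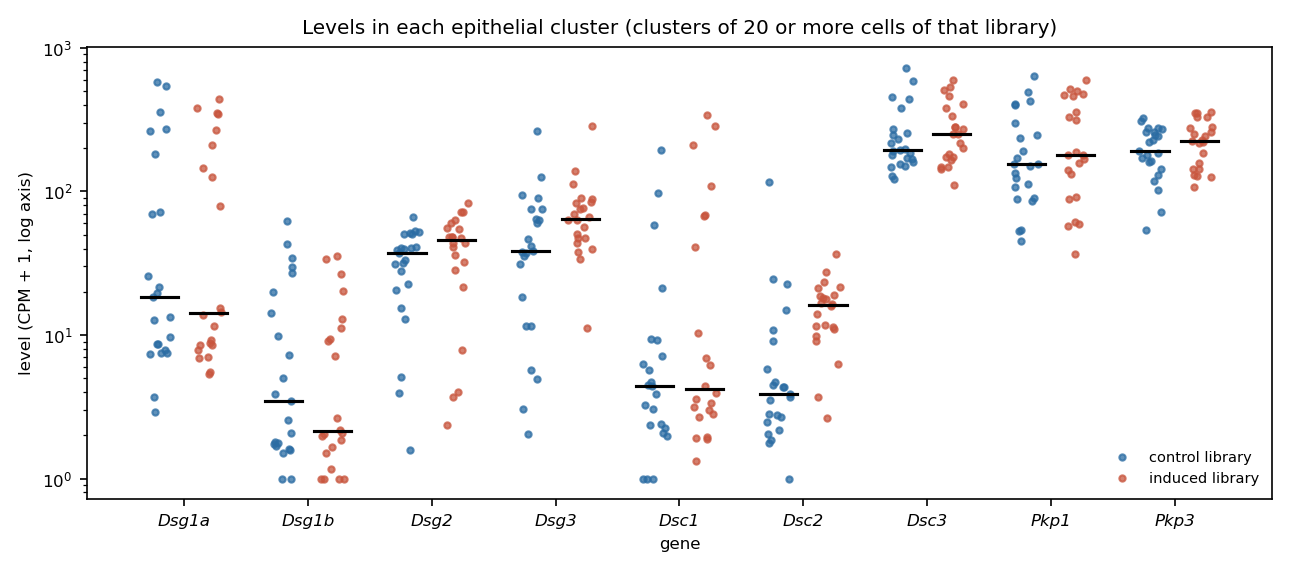
Each point is the level (CPM with 1 added, log axis) of a gene in 1 epithelial cluster with at least 20 cells of that library and a median of at least 3000 UMIs, 23 clusters in the control (blue) and 22 in the induced (red) library, with black lines at the medians. Points are clusters of 1 library each, not replicates. The Dsc2 medians, 2.86 and 15.2 CPM, lie farther apart than those of Dsg1a, 17.3 and 13.1 CPM.

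Across single clusters the median of Dsc2 was higher in the induced library, over sets of clusters that differ between the libraries. The median cluster held 2.86 CPM in the control, with a range from 0 to 114, and 15.2 CPM in the induced library, from 1.64 to 35.7. Of 23 control clusters 3 lay above the induced median, 2 of the sebaceous gland and the upper follicle cluster led by Wfdc18. Of 22 induced clusters 2 lay below the control median, the granular one and a Krt79-led one. Dsg3 also had a higher median in the induced library, 63.7 against 37.2 CPM, with 6 of 23 control clusters above the induced median. For Dsc1 the medians were 3.39 CPM in the control and 3.19 in the induced library, and 12 of 23 control clusters lay above the induced median.

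Of the clusters that both libraries filled with at least 20 cells, 5 had a median of at least 3000 UMIs. In the one led by Krt25, Krt75 and Krt71, keratins of the inner root sheath and companion layer, Dsc1 was 20.4 CPM over 89 control and 109 CPM over 107 induced cells, a log2 ratio of 2.41 (2.09 to 2.74). Median depth there was 43722 UMIs in control and 16395 in induced cells, and its part in the result was not tested. Dsg1a was 269 and 268 CPM there, and the interval of its log2 ratio ran from -0.13 to 0.12. In the hair shaft cluster led by Krt33a, Dsc2 was 9.86 and 35.7 CPM, a log2 ratio of 1.86 (1.06 to 2.70), and Dsg3 17.3 and 49.3 CPM, a log2 ratio of 1.51 (0.88 to 2.16). The interval of Dsc2 lay above 0 in that cluster only, 1 of the 5. Its log2 ratio was 0.17 (-0.40 to 0.72) in the Krt25-led cluster, 0.30 (-0.47 to 1.06) in the Wfdc18-led cluster and 2.0 (-0.12 to 4.12, on 5 UMIs in each library) in the Tgfb2-led cluster, and the granular cluster held 0 control UMIs. Over the 5 shared clusters the intervals of Pkp1 and of Dsg3 each lay above 0 in 3, and that of Dsc3 below 0 in 3. That of Dsg1a was below 0 in 3 and above in none. The direction of Pkp1 differed from basal and spinous cells, where Pkp1 was lower in the induced library.

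Shares of cells with a UMI depend on depth, so each cell was thinned to 2000 UMIs. Of control basal cells 11.1% (8.65 to 13.9) then had a Dsg1a UMI, against 2.79% (1.96 to 3.84) of induced ones. In fibroblast-like cells the shares were 0.898% in the control and 0% in the induced library (0 of 212 cells, which allows a share of up to 1.42%). At 1000 UMIs the induced shares overlapped, at 1.32% (0.769 to 2.10) in basal and 2.09% (0.683 to 4.81) in fibroblast-like cells. Without thinning, the Dsg1a shares in basal cells were 60.3% and 24.4%, at medians of 18777 and 24995 UMIs per cell, and in fibroblast-like cells 3.74% and 4.18%, at medians of 9950 and 5689. Dsg2 was seen in 8.84% of thinned control and 13.9% of thinned induced basal cells, and Pkp1 in 40.0% and 28.7%. In thinned fibroblast-like cells Dsg2 was seen in 0.180% of control and 0.943% of induced cells, and Pkp1 in 1.44% and 2.83%. Thinned to 1000 UMIs, the basal intervals of Dsg1a stayed apart, at 8.49% and 1.32%, while those of Dsg2, at 6.07% and 6.89%, and of Pkp1, at 20.5% and 16.2%, did not. Dsc2 was seen in 1 of 577 control basal cells and in 3.56% of induced ones, both thinned to 2000 UMIs, so the control share rests on 1 cell. At 1000 UMIs 0 members had a higher basal share in the induced library with intervals apart. In thinned spinous cells Dsg3 was seen in 5.19% (2.11 to 10.4) of control and 16.3% (12.6 to 20.5) of induced cells, and Dsc1 in 8.89% (4.68 to 15) and 22.8% (18.5 to 27.5). In fibroblast-like cells Dsg3 was then seen in 0.718% of control and 0 of 212 induced cells, and Dsc1 in 0.472% of induced and 0 of 557 control cells (limit at a count of 0, 0.539%). Unthinned spinous cells had medians of 38155 UMIs in the control and 44393 in the induced library.

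Among the 10 genes, the upper-layer members moved together over 42 epithelial clusters of both libraries, as a description with clusters sharing libraries and depth. Pearson's r of log2 levels was 0.92 for Dsg1a with Dsg1b, which may share reads, 0.88 for Dsg1a with Pkp1 and 0.82 for Dsg1a with Dsc1. Dsg2 ran the other way, with -0.81 to Dsg1b and -0.80 to Dsc1. Dsc2 had no r above 0.24 with any other member.

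The genes most like 9 of the members over the same clusters, of 5847 compared, were as follows, with Dsg4 left out because it reached 20 CPM in no cluster. Dsg1a was nearest to Perp (r 0.93), a desmosomal membrane protein, and Jup (0.92), which encodes plakoglobin. Dsg1b was nearest to Sult2b1 (0.94), a cholesterol sulfotransferase, and Perp (0.92), and Pkp1 to Lgals7 (0.94) and Dmkn (0.90), which encode the epidermal proteins galectin-7 and dermokine. Dsc1 was nearest to Ephx3 (0.93), an epoxide hydrolase of the epidermal barrier, and Casp14 (0.91), the caspase of cornification. Dsg2 was nearest to Wls (0.92), which carries Wnt proteins to the surface, and Cuedc1 (0.91). Dsg3 was nearest to S100a6 (0.87) and Rab15 (0.80), Dsc2 to Snn (0.81) and Dazap2 (0.79), Dsc3 to the cell adhesion genes Nectin1 (0.80) and Sdc1 (0.79), and Pkp3 to Ahnak (0.88) and Pycard (0.85).

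The other desmosome genes included the plaque proteins Jup, Dsp, Evpl and Ppl, the membrane protein Perp and the corneodesmosome protein Cdsn. Of 8 in the list 6 were tested over all epithelial cells, and 2 were past 2-fold higher in the induced library (background, 2.28%) and 0 lower (4.17%), with a median log2 ratio of 0.74 against -0.11 for all genes. Cdsn was 46.1 CPM in the control and 122 in the induced library, and Ppl, which encodes periplakin, 87.7 and 182 CPM. In basal and in spinous cells, 5 of the list were tested in each and none was past 2-fold, with medians of 0.06 and 0.23 (background, 2.04% higher and 3.03% lower in basal, 3.71% and 3.25% in spinous cells). In granular cells 0 of 6 tested were past 2-fold (background, 3.44% higher and 5.49% lower), with a median of 0.44. In the upper follicle 1 of 6 was higher (background, 5.03%) and 0 lower (5.1%), with a median of 0.16. In the shared cluster led by Krt25, 3 of 6 were higher (background, 3.48%) and 0 lower (3.27%), with a median of 0.99. In the shared cluster led by Wfdc18 0 of 6 were higher (200 of all 5731 genes tested), with a median of 0.002. In the one led by Tgfb2 1 of 5 was higher (198 of 6065), with a median of 0.20, and in the one led by Krt33a 1 of 4 (260 of 5966), with 0.72. In the outer root sheath 0 of 4 were past 2-fold (background, 2.33% higher and 4.71% lower), with a median of 0.15.

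Proteases that cut corneodesmosomes, and their inhibitor, were mixed. Over all epithelial cells 6 of 8 were tested and 1 was past 2-fold higher (background, 2.28%), the inhibitor Spink5, at 133 CPM in the control and 393 in the induced library, and 0 were lower (4.17%). In spinous cells 2 of 5 were higher (background, 3.71%) and 2 lower (3.25%). Spink5 was 140 and 459.6 CPM there, while the kallikreins Klk5, at 90.5 and 23.0 CPM, and Klk7, at 61.7 and 21.0 CPM, stood lower in the induced library. In granular cells 0 of 7 were higher (background, 3.44%) and 3 lower (5.49%). In the upper follicle 4 of 7 were higher (background, 5.03%) and 0 lower (5.1%), with a median log2 ratio of 1.10.

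Of the 10 adherens junction genes, which form the neighbouring cadherin junction, all were tested and none was past 2-fold in either direction over all epithelial cells (background, 2.28% higher and 4.17% lower), with a median of 0.14. The 2 with the highest levels were Ctnnb1, which encodes beta-catenin, at 364 and 356 CPM, and Ctnna1, at 172 and 167 CPM. Of 10 tight junction genes 4 were tested and 1 was past 2-fold higher (background, 2.28%), Cldn4, a claudin, at 44.2 and 129 CPM, and 0 were lower (4.17%). Of 14 transcription factors of epidermal differentiation 11 were tested, 0 were higher (background, 2.28%) and 1 was past 2-fold lower (4.17%), Cebpa, at 174 CPM in the control and 65.0 CPM in the induced library.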

How the data were processed

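The 2 libraries were deposited by the authors as matrices of raw UMI counts. The file headers name Cell Ranger 6.0.0 as the counting software, and mm10 is the genome named in the submitters' processing notes. Cell-calling settings are not given in the sources used here. Barcodes with at least 1000 UMIs, 500 genes and under 15% mitochondrial UMIs were kept. Scrublet's automatic threshold marked only 3 control and 2 induced cells and had not worked, so no barcode was removed, and dropping the 7% with the highest scores was an alternative. With scanpy 1.11.5 (leidenalg 0.10.2, scikit-learn 1.9.0; intervals with scipy 1.17.1), both libraries were clustered together on 2000 variable genes, 30 principal components and 15 neighbours, at resolution 1.0. Clusters of at least 5000 keratin CPM were pooled as epithelial and clustered again at resolution 2.0, without the 10 members and the other listed desmosome genes. A cluster took a layer's name when at least 3 of its markers, and 50% of the list, were seen in 25% of cells and stood 1.5-fold above other cells (20 CPM added), and when no other list had more markers among its 10 leading genes. A cluster with a median under 1/3 of its libraries' median UMIs and no such leading marker also stayed unnamed. A Krt79-led cluster of 92 induced cells with 9 of 12 spinous markers raised stayed unnamed by this rule. These numbers were chosen after seeing the data, since a lower keratin limit had let in a fibroblast cluster. A cluster led by Col3a1 (46 control and 23 induced cells, unnamed) still stayed among the epithelial cells.

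UMIs were summed per layer and library. Levels carry exact Poisson intervals, log2 ratios exact conditional binomial intervals and shares exact Clopper-Pearson intervals. The call at 2-fold was also run on simulated Poisson counts. These carry counting error only, with no difference between animals or cell mixes, so no result here rests on them. The 10 members are all named. Of each other list, genes past 2-fold over all epithelial cells are named, or else the 2 highest, with the 2 genes most like each member but Dsg4. Genes named in single layers beyond that, and cells, clusters and keratin-bin markers, were chosen after their values were seen. The members and lists were chosen with earlier results of these data known. Ctsv, listed with the proteases, was not used here. Alternatives covered doublets, a stricter filter, clustering, layers set per cell, scaling, the CPM added and thinning.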

Additional observations from a re-analysis of the deposited data

Results flagged for a closer look

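Dsc1, the desmocollin of the upper epidermis, stood past 2-fold in opposite directions in a pair of layers. Its log2 ratio of induced over control was 1.30 in spinous-like epidermis and -1.13 in upper follicle- and isthmus-like cells. The difference between the layers was not tested, since each group was 1 library. The spinous ratio stayed above 0 in all 5 alternatives, while the follicle ratio was below 0 in 2 of 5. In all 5 the follicle ratio lay between -0.39 and 1.18, so its call as lower was lost in each.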

How the results depend on the processing

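No paired analysis was possible because each group was 1 library and the labels carry no replicate numbers; leaving out a replicate was likewise impossible. Of 88 recomputed counts of members 74 stayed within 1.5 times the reported one. The count of members higher in granular than spinous cells in both libraries fell from 1 to 0 without the top doublet scores, at resolution 1.0, with clustering centred within each library and with layers per cell. In granular cells 1 member instead of 0 was higher in the induced library under centred clustering. In the upper follicle the count of lower members fell from 1 to 0 without the top doublet scores, under the stricter filter, at resolution 1.0, with centred clustering and with layers per cell, which also gave 1 higher member instead of 0. There the log2 ratio of Dsc1 reversed from -1.13 to 0.24 under the stricter filter, 0.67 at resolution 1.0 and 1.18 with layers per cell. Thinned to 1000 UMIs, 0 basal members had a higher and 1 a lower share in the induced library with intervals apart, against 2 and 2 at 2000 UMIs, and without thinning 4 had a higher share. Shares by this rule were not counted over all genes, so these counts are not a result about the members. The cause of these moves was not tested. For single members 233 of 247 recomputed log2 ratios kept their sign. Over the alternatives on cells, clustering and layers basal Dsg1a ranged from -2.58 to -1.96, basal Dsc2 from 2.41 to 2.61, spinous Dsg3 from 1.47 to 3.09, spinous Dsc1 from 1.33 to 2.22 and spinous Dsg1a from -0.87 to -0.58. With 5 CPM added these were -2.02, 1.49, 2.13, 1.23 and -0.95, and relative to the median gene -2.03, 1.48, 2.15, 1.24 and -0.94. Dsg2 in spinous cells, 0.50 on 17 control UMIs, was below 0 in all 5 alternatives (-1.63 to -0.02). Without the stress-gene cluster, an alternative chosen after the data had been seen, basal Dsg1a was -2.35 and Dsc2 2.56. With 22 control granular cells, 1 library per group and rebuilt layers, differences between animals could not be estimated.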
